A study of Homo sapiens with 14 samples.

Results

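FoxA1 was reduced with a stable short hairpin RNA in 22RV1, a human prostate cancer cell line, and expression on the resulting array (22RV1_shFoxA1) was set against an array of 22RV1 cells with a control hairpin (22RV1_shCtrl). The pair was chosen by its sample titles and held 2 of the 14 arrays of the series. Each side had 1 array, so the values below carry no replicate error, no p-value was computed from them, and array and knockdown cannot be told apart. The labels do not state the medium of these arrays: cells were generally kept in 10% serum, and some experiments used 3 days of hormone-stripped medium followed by 1 nM of the synthetic androgen R1881 for 24 hours. The series also held FoxA1 knockdown in LNCaP, an androgen-sensitive prostate cancer line, by shRNA (shFoxA1 and shCtrl, 4 arrays each, of which 1 each was labelled R1881 and 1 each hormone-deprived) and by siRNA (siFoxA1 and siCtrl, 1 array each). None of these arrays was shared with the 22RV1 pair.

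FOXA1 is a forkhead transcription factor that binds its sites in closed chromatin and makes the surrounding DNA accessible to other factors, which is why it is called a pioneer factor. In the prostate epithelium it marks the luminal, secretory cells and works with steroid hormone receptors at the enhancers of secretory genes. It was first studied in liver, where it acts at the regulatory regions of albumin and other liver genes.

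The FOXA1 probe had a log2 intensity of 10.71 in 22RV1_shFoxA1, against 11.81 in 22RV1_shCtrl, a difference of -1.11 (a 2.16-fold lower level). On the scale of the scanner, before any normalization, the same probe read 948 in 22RV1_shFoxA1 and 3207 in 22RV1_shCtrl. The difference was close in size in LNCaP, at -0.81 in the siRNA pair and -1.02 across the 8 shRNA arrays (SE 0.15, limma adjusted p = 0.0127). The transcript therefore stayed well above background in 22RV1_shFoxA1. Of the 11 luminal prostate markers written down for the label check, 9 had values, and all 9 were above background on both 22RV1 arrays.

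Of 20044 named genes, 13769 were above background on at least 1 of the 2 22RV1 arrays. At least 2-fold differences were seen for 432 of them (3.14%), of which 240 (1.74%) were higher in 22RV1_shFoxA1 and 192 (1.39%) were lower. Differences of at least 4-fold were rarer, with 37 genes higher and 17 lower. The middle 95% of genes lay between -0.84 and 0.86 on the log2 scale, so a difference of 2-fold stood outside the bulk of genes, with no measure of how far 2 arrays of the same cells would differ. The 22RV1_shFoxA1 array was the dimmer one, with a mean intensity of 235 against 325 in 22RV1_shCtrl, and 47.1% against 52.5% of probes were above background. All directions are therefore relative to quantile normalization, which gives the arrays the same distribution. When arrays were instead scaled to a common median, the median of all genes moved to -0.41 and 76 genes were higher and 1317 lower, so that the higher genes made up 5.46% of the called genes in place of 55.6%.

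**Figure D1:**
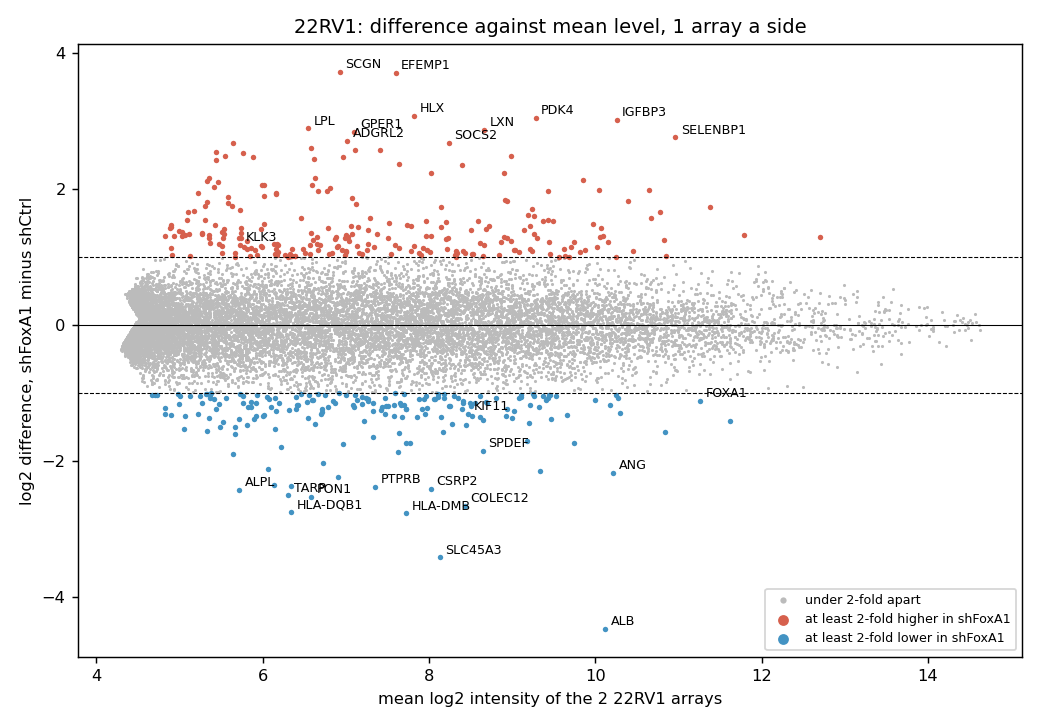
Log2 difference (22RV1_shFoxA1 minus 22RV1_shCtrl, vertical axis) against the mean log2 intensity of the 2 arrays (horizontal axis) for the 13769 genes above background on at least 1 array. Dashed lines mark 2-fold, red points the 240 higher genes and blue points the 192 lower genes; ALB lies lowest, at -4.47, and SCGN highest, at 3.73.

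Among the 10 largest decreases, albumin came first. ALB, which encodes serum albumin, had a log2 intensity of 7.88 in 22RV1_shFoxA1 and 12.35 in 22RV1_shCtrl, a difference of -4.47, and its second probe gave -5.09. Albumin RNA was thus among the brighter signals of the control hairpin cells and remained above background after knockdown. SLC45A3, the prostate surface protein prostein, had 6.42 in 22RV1_shFoxA1 and 9.84 in 22RV1_shCtrl, a difference of -3.41. HLA-DMB, which helps load peptides on MHC class II molecules, had 6.34 in 22RV1_shFoxA1 against 9.11 in 22RV1_shCtrl. HLA-DQB1, a class II chain, had 4.97 in 22RV1_shFoxA1 against 7.72 in 22RV1_shCtrl. These were 6.81-fold and 6.71-fold lower levels, whereas the class II genes HLA-DRB1, HLA-DPA1 and HLA-DPB1 and the class II regulator CIITA were below background on both arrays and HLA-DRA and HLA-DMA differed by -0.29 and -0.23. COLEC12, a scavenger receptor, differed by -2.66. PON1, a secreted lactone-hydrolysing enzyme made mainly by liver, differed by -2.52, and its second probe gave -1.81. TARP, a prostate transcript from the T cell receptor gamma locus, differed by -2.50. ALPL, tissue-nonspecific alkaline phosphatase, was not above background in 22RV1_shFoxA1 and was at least 5.16-fold lower there. CSRP2, a LIM domain protein, differed by -2.40, and PTPRB, a receptor tyrosine phosphatase, by -2.38.

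Among the 10 largest increases, SCGN came first. SCGN, which encodes the calcium-binding protein secretagogin, had a log2 intensity of 8.79 in 22RV1_shFoxA1 and 5.07 in 22RV1_shCtrl, a difference of 3.73. EFEMP1, an extracellular matrix glycoprotein, had 9.45 in 22RV1_shFoxA1 and 5.74 in 22RV1_shCtrl, a difference of 3.71. Both genes were dim with the control hairpin. PDK4, the kinase that turns off pyruvate dehydrogenase, had 10.81 in 22RV1_shFoxA1 against 7.76 in 22RV1_shCtrl. IGFBP3, a secreted binding protein of insulin-like growth factors, had 11.77 in 22RV1_shFoxA1 against 8.75 in 22RV1_shCtrl, and its probes gave 3.02 and 3.23. SELENBP1, a selenium-binding methanethiol oxidase, had 12.34 in 22RV1_shFoxA1 against 9.58 in 22RV1_shCtrl. Unlike SCGN and EFEMP1, these 3 genes were already well above background in the control. The homeobox factor HLX differed by 3.08, lipoprotein lipase (LPL) by 2.90, the carboxypeptidase inhibitor latexin (LXN) by 2.87 and the adhesion receptor ADGRL2 by 2.71. GPER1, a G protein-coupled estrogen receptor, differed by 2.85, but its 3 probes disagreed in size, between 0.28 and 3.00. Over all 2-fold genes with more than 1 probe above background, all other probes had the same sign in 129 of 144 and were also at least 2-fold apart in 40. Among all 3763 genes with more than 1 such probe, the mean of the other probes had the same sign in 2583, a looser measure.

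**Figure D2:**
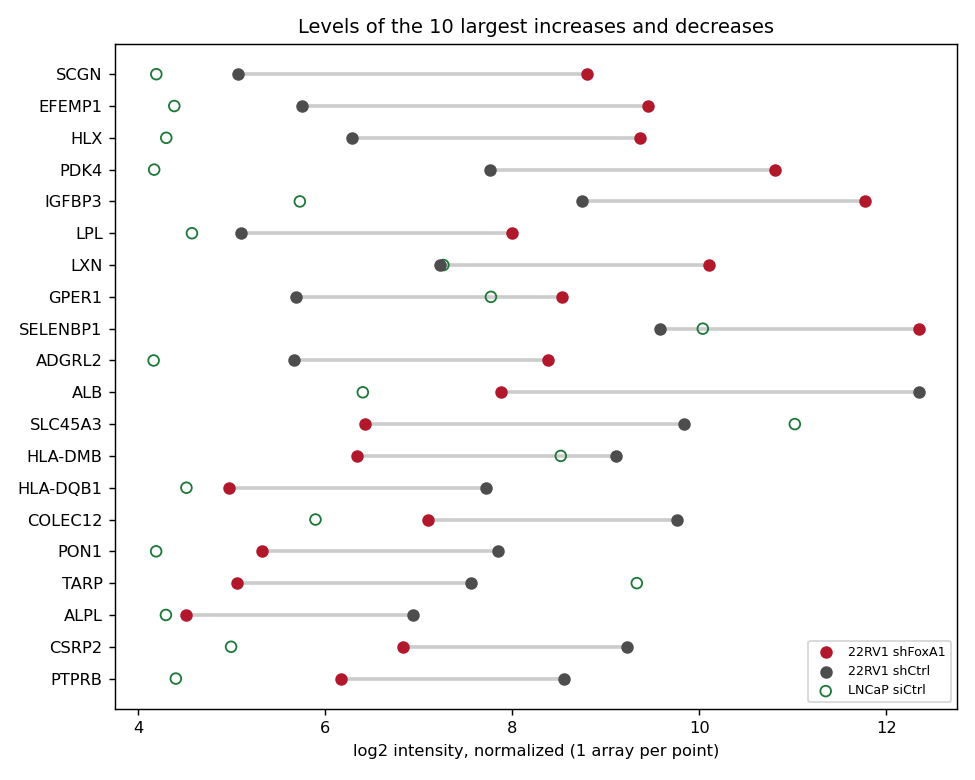
Normalized log2 intensity of the 10 largest increases (top) and 10 largest decreases (bottom), 1 array per point: 22RV1_shFoxA1 in red, 22RV1_shCtrl in grey and, as open circles, LNCaP siCtrl. ALB was at 7.88 in 22RV1_shFoxA1 and 12.35 in 22RV1_shCtrl, and at 6.40 in LNCaP siCtrl.

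Promoter sequences from RefSeq (GRCh38.p14), from 250 bases before to 50 bases after the start of each gene, were searched on both strands for the forkhead motif TGTTTAC and for 2 variants of it, TGTTTGC with one changed base and TATTTAC with another; a promoter counted once however many matches it held. At least 1 match was present in 17 of the 163 lower genes with a promoter entry (10.4%), in 15 of 192 higher genes (7.81%), in 717 of 10866 genes above background in the pair (6.60%) and in 2627 of all 27305 promoters (9.62%). Of the 10 largest decreases 8 had an entry and 1 of these, ALB, held a match. Of the 10 largest increases 7 had an entry and 0 held a match. The promoters of ALB and DEFB132, a lower and a higher gene with a match, and of SLC45A3, a lower gene without one, are printed 5′ to 3′ with the match in capitals; the matches begin at position -159 in ALB and -191 in DEFB132, counted from the start of the gene.
ALB, chr4:73404037-73404336, plus strand: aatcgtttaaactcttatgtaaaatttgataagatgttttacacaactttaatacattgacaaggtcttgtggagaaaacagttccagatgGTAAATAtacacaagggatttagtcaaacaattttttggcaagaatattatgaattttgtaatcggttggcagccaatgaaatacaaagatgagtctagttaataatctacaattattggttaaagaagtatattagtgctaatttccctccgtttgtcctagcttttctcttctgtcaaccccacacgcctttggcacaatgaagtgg
DEFB132, chr20:257474-257773, plus strand: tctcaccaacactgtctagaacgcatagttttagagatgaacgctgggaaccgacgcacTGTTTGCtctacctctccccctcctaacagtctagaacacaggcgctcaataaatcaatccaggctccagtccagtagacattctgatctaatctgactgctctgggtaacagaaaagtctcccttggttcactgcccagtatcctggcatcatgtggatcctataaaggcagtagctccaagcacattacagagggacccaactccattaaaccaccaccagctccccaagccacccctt
SLC45A3, chr1:205680460-205680759, minus strand: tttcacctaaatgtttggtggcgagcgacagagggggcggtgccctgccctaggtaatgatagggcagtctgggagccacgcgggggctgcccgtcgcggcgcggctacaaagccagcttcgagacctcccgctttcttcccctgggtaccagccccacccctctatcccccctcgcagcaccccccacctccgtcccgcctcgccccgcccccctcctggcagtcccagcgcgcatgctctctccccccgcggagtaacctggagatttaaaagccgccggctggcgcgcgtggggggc
A match describes the letters of this short window, and distant enhancers were not searched.

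Prostate luminal genes went both ways. The luminal transcription factors SPDEF and CREB3L4 were lower in 22RV1_shFoxA1: SPDEF had 7.72 in 22RV1_shFoxA1 and 9.57 in 22RV1_shCtrl, and CREB3L4 had 6.91 in 22RV1_shFoxA1 and 8.64 in 22RV1_shCtrl. Other luminal genes were higher, the keratin KRT8 by 1.25 and the epithelial factor GRHL2 by 1.06. HOXB13, a prostate homeobox factor, differed by 0.64 and KRT18 by -0.11. Of the 14 luminal genes above background, 2 were higher and 3, FOXA1 among them, lower by 2-fold or more, beside 1.74% higher and 1.39% lower among all genes. Their median lay -0.06 from that of all genes, and between -0.13 and 0.04 under the other settings, so the list had no stable direction. With median scaling KRT8 was no longer 2-fold higher; GRHL2 ended under 2-fold in 7 settings.

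Genes that androgen activates in the prostate were also split. KLK3, which encodes prostate-specific antigen, had a log2 intensity of 6.32 in 22RV1_shFoxA1 and 5.13 in 22RV1_shCtrl, a difference of 1.18. It was dim on both arrays, and the difference was under 2-fold without background correction, at 0.49. TMPRSS2, a membrane serine protease, differed by 1.43 and AZGP1, a secreted zinc-binding glycoprotein, by 1.41. SLC45A3 (-3.41) and ABCC4, a prostate efflux pump (-1.04), were lower. Of 22 androgen-activated genes above background, 3 were higher and 2 lower by 2-fold or more (1.74% and 1.39% of all genes), with a median 0.08 above that of all genes (-0.07 to 0.09 over the settings). The 3 higher ones were under 2-fold with median scaling. The kallikreins KLK2 (0.74) and KLK3 were both above 0, and FKBP5, a chaperone partner of steroid receptors, differed by 0.31.

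Genes that androgen represses lay lower as a list, with 7 of 11 below 0 and 4 above. Their median was -0.86 relative to all genes (-0.50 without background correction), and 3 of 11 were at least 2-fold lower and 1 higher (1.39% and 1.74% of all genes). The lower ones were UGT2B10, a glucuronosyltransferase not above background in 22RV1_shFoxA1 (at least 2.37-fold), the cholinesterase BCHE (-1.45) and the decarboxylase DDC (-1.20). GRIN3A, a glutamate receptor subunit, was higher, by 1.46, and CAMK2N1 (0.38), UGT2B7 (0.26) and OPRK1 (0.10) also lay above 0. The androgen-inactivating enzymes UGT2B15 and UGT2B17 differed by -0.90 and -0.88, short of 2-fold. Members of this family have near-identical sequences, so their probes may not tell them apart. Without background correction UGT2B10, BCHE and DDC, all dim, were under 2-fold. In the LNCaP shRNA fit 6 of 10 list members fell and 1 rose, beside 3.94% and 4.14% of all genes also above background in the 22RV1 pair.

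Cell cycle genes were lower as a group by moderate amounts. All 24 G2/M and mitosis genes lay below 0, from -1.30 to -0.25, with a median -0.74 relative to all genes. Of these, 4 were at least 2-fold lower, beside 1.39% of all genes: the spindle motor KIF11 (-1.30), the checkpoint kinase BUB1 (-1.17) and the cyclins CCNA2 and CCNB1, which were just past the threshold. BUB1, CCNA2 and CCNB1 were under 2-fold without background correction, while the list median stayed between -0.92 and -0.64. KIF11 had 7.82 in 22RV1_shFoxA1 and 9.12 in 22RV1_shCtrl, and its second probe gave -1.01. Among 23 G1/S and DNA replication genes 0 were 2-fold apart, and 22 lay below 0, led by thymidylate synthase TYMS (-0.87) and thymidine kinase TK1 (-0.82). Only CCNE1, of these 23 genes, was above 0, at 0.20. MKI67, the proliferation marker Ki-67, differed by -0.25. Of 8 CDK inhibitors and D cyclins above background 0 were 2-fold apart and 4 lay on each side of 0, from CDKN2A (-0.68) to CDKN1A (0.79), with a median 0.08 above that of all genes. In the LNCaP shRNA fit, 6 of 23 G2/M genes and 11 of 22 G1/S genes fell and 0 rose. Among all genes of that fit also above background in the 22RV1 pair, 3.94% fell and 4.14% rose.

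Of 22 sterol and fatty acid synthesis genes, 3 were at least 2-fold lower and 0 higher (1.39% and 1.74% of all genes): the desaturase SCD (10.91 in 22RV1_shFoxA1 and 12.32 in 22RV1_shCtrl), the sterol-sensing protein INSIG1 (-1.29) and SREBF1 (-1.04), the factor that drives lipid synthesis genes. FASN, fatty acid synthase, differed by 0.41, so the enzymes of the pathway did not move as one. The list median was -0.17 relative to all genes. Among 23 serine, one-carbon and arginine enzymes the median was -0.36 and 0 passed 2-fold; PSAT1, of serine synthesis, differed by -0.96 and MTHFD2, of the mitochondrial folate cycle, by -0.92. Of 29 genes listed as amino acid transporters 2 were at least 2-fold lower and 0 higher (1.39% and 1.74% of all genes). The glutamine transporter SLC1A5 had 7.30 in 22RV1_shFoxA1 and 8.61 in 22RV1_shCtrl. The other was SLC43A3 (-1.20), which carries purine nucleobases rather than amino acids. In xenobiotic metabolism the cytochromes CYP1A2 (2.07) and CYP1A1 (1.90) and the glutathione transferase GSTA1 (at least 2.78-fold, not above background in 22RV1_shCtrl) were higher, and GCLC, of glutathione synthesis, was lower (-1.15). The retinal dehydrogenase ALDH1A3 was at least 5.04-fold higher by the probe used, and its other probe gave a log2 difference of 1.37. Without background correction SREBF1, SLC43A3, CYP1A2, CYP1A1, GSTA1 and GCLC were under 2-fold.

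Among cytoskeletal, matrix and adhesion genes, single members stood out while the lists were mixed. TAGLN, an actin-binding smooth muscle protein, had 8.96 in 22RV1_shFoxA1 and 7.44 in 22RV1_shCtrl, and both of its probes above background gave 1.52, while its other probe, below background, gave 0.18. ANXA2, a calcium-dependent membrane-binding protein, differed by 1.98, with probes from 0.97 to 1.98, and its relative ANXA1 by 1.20. S100A6 (1.55), the laminin chains LAMB2 (1.54) and LAMB3 (1.32), the protease inhibitor SERPINE2 (1.84) and the simple-epithelial keratin KRT19 (1.32) were higher too. Other members lay below 0, such as S100A10 (-0.92), ANXA5 (-0.54) and the integrin ITGAV (-0.47). Of the annexins above background 7 lay above and 3 below 0, and of the serpins 5 and 8. The S100 and integrin lists were matched by gene name and had 8 above and 3 below, and 7 above and 11 below. The S100 count took in the binding protein S100PBP (0.18). The integrin count took in ITGB3BP (-0.95), ITGB1BP1 (-0.39) and ITGBL1 (-0.24), which are not integrin subunits. Of the epithelial junction and keratin genes 12 lay above and 13 below 0. Among mesenchymal genes SNAI2, ZEB1, ZEB2 and FN1 were below background on both arrays, VIM differed by 0.30, TWIST1 by slightly less than the threshold and the epithelial cadherin CDH1 by -0.09. Of 14 mesenchymal genes above background, 10 lay above 0, with a median 0.26 above that of all genes (0.11 to 0.31 over the settings); 1 was at least 2-fold higher and 1, CALD1, lower (1.74% and 1.39% of all genes), though the 3 probes of CALD1 ran from -1.06 to 0.12. The stress cytokine GDF15 was higher by 1.83 and the activin subunit INHBB lower by 1.42, INHBB having 4.81 in 22RV1_shFoxA1 against 6.23 in 22RV1_shCtrl. With median scaling TAGLN, ANXA1, S100A6, LAMB2, SERPINE2, KRT19 and GDF15 were under 2-fold, and without background correction LAMB3, ANXA1, CALD1 and INHBB were.

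Markers of other cell types were above background in part: 6 of 9 basal, 14 of 16 neuroendocrine, 5 of 12 fibroblast and 5 of 16 leukocyte and endothelial markers with a probe. Among all named genes, 13769 of 20044 were above background on at least 1 of the 2 arrays. The macrophage and lysosome marker CD68 was bright on both arrays, with 9.86 in 22RV1_shFoxA1 and 9.31 in 22RV1_shCtrl. Its other probes gave differences of 1.45 and 0.68. LYZ, MS4A1 and CD34, of the same list, were dim on both arrays. They had 4.96, 4.74 and 4.67 in 22RV1_shFoxA1 and 4.81, 4.86 and 4.72 in 22RV1_shCtrl. Of the 9 basal prostate markers with a probe, KRT5, KRT14 and NGFR were below background on both arrays, and 3 of the 6 others were at least 2-fold higher (1.74% of all genes): KRT15 (at least 3.95-fold), CAV1 (1.95, its other probe -0.02) and LAMB3. Without background correction KRT15, CAV1 and LAMB3 were all under 2-fold. The log2 of the summed raw intensity of the members above background was 9.47 in 22RV1_shFoxA1 and 9.33 in 22RV1_shCtrl for the basal list. The fibroblast sum was 8.83 in 22RV1_shFoxA1 and 9.21 in 22RV1_shCtrl, and the leukocyte and endothelial sum 9.90 in 22RV1_shFoxA1 and 10.2 in 22RV1_shCtrl. The basal sum was thus the higher one on the array that was dimmer as a whole, and the other sums were lower there. Background was left in these sums, and its mode per probe was 83.4 in 22RV1_shFoxA1 and 90.0 in 22RV1_shCtrl. Small sums therefore partly compare background. CD68, part of the leukocyte and endothelial sum, was higher in 22RV1_shFoxA1 after normalization. Of 12 fibroblast markers 7 were below background. LUM and FBLN1 were each lower by 1.01, beside 1.39% of all genes at least 2-fold lower. Both ended under 2-fold without background correction. Of the other members above background, COL1A1 and COL6A3 differed by 0.27 each and COL1A2 by -0.27. The part of these cell types in the results was not tested. Of 16 leukocyte and endothelial markers with a probe 11 were below background, PTPRC, PECAM1 and VWF among them. By the probe with the highest mean, 0 of the other 5 passed 2-fold. Of 14 neuroendocrine genes above background, DDC alone passed it.

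Albumin prompted a look at liver genes, and PDK4 at genes known to respond to glucocorticoids; both lists were written after the values had been seen, so their counts only describe. Of 45 liver-type genes with a probe, 20 were below background on both arrays. Of the 25 others 4 were at least 2-fold lower (1.39% of all genes): ALB, PON1, the cytochrome CYP2C8 (-2.35) and angiogenin (ANG). ANG had 9.13 in 22RV1_shFoxA1 and 11.30 in 22RV1_shCtrl, and its second probe gave -2.27. The nuclear receptor NR5A2 was higher, by 1.12. Other secreted liver proteins stayed within 2-fold: TTR differed by -0.66, AFP by -0.29, APOE by 0.30 and APOA1 by 0.47. Of 24 glucocorticoid-responsive genes above background, 7 were at least 2-fold higher and 1, STOM, lower (1.74% and 1.39% of all genes). After PDK4 these were ERRFI1 (2.14), an inhibitor of the epidermal growth factor receptor, HSD11B2 (1.78), which inactivates cortisol, the monoamine oxidase MAOA (1.75), the kinase SGK1 (1.28) and the factors ZBTB16 (1.23) and KLF9 (1.22). FKBP5 (0.31) and TSC22D3 (-0.59), which are also in that list, did not follow them. NR3C1, the glucocorticoid receptor itself, differed by 0.27.

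**Figure D3:**
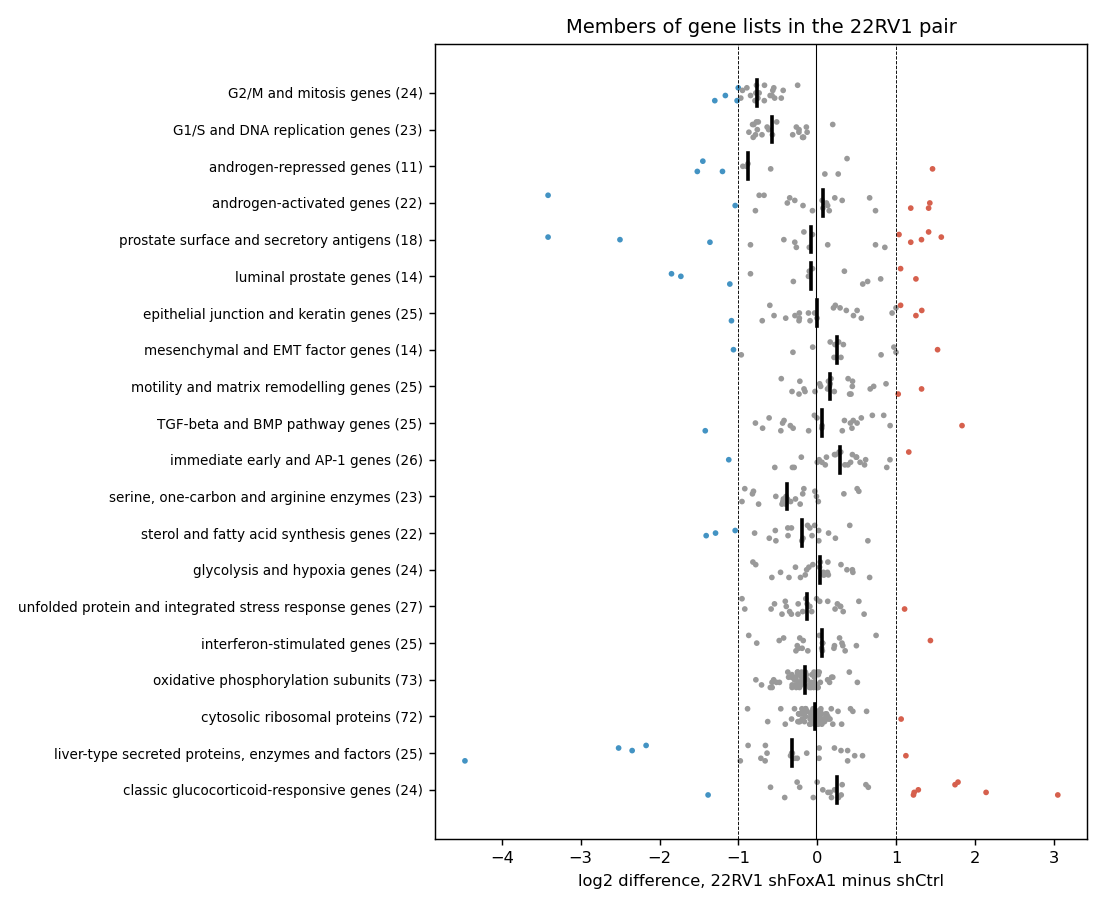
Log2 differences (22RV1_shFoxA1 minus 22RV1_shCtrl) of the members of 20 gene lists above background on at least 1 array, with the number of members in brackets; red points are higher and blue points lower by 2-fold or more, black bars are list medians and the solid line is the median of all genes. All 24 G2/M genes lie left of 0, while the luminal and androgen-activated lists hold points on both sides.

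The LNCaP shRNA arrays, the only replicated knockdown in the series, gave a test independent of the 22RV1 arrays. There 939 of 11863 genes (7.92%) passed an adjusted p of 0.05 in limma, 494 rising (4.16%) and 445 falling (3.75%). Among genes measured in both, 56 of the 191 that were 2-fold higher in 22RV1 rose in LNCaP (29.3%, beside 4.14% of all 10998 genes), which was 12.3% of the 455 genes that rose there. Likewise 43 of the 159 that were 2-fold lower in 22RV1 fell in LNCaP (27.0%, beside 3.94%), or 9.93% of the 433 that fell. In 22RV1 1.74% and 1.45% of these genes were higher and lower. In the opposite direction stood 3 higher and 3 lower genes. With the siRNA pair 45 of 203 higher genes were shared (22.2%, and 18.7% of the 241 higher there, beside 1.97% of all genes), as were 29 of 166 lower genes (17.5%, and 19.7% of 147, beside 1.2%). Without the 2 R1881 arrays the LNCaP test passed 52 genes, and 9 genes in place of 99 were shared the same way. Leaving out single numbered arrays gave between 24 and 100 shared genes, the fewest without shCtrl replicate 2, with 25 without shFoxA1 replicate 2 and 35 without shCtrl replicate 1.

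Read from the LNCaP side, the 22RV1 values were shifted in the same direction. The 455 genes that rose in LNCaP had a median 22RV1 difference of 0.31, and 73.4% lay above 0, beside 48.9% of all genes. The 433 that fell had a median of -0.45, and 85.0% lay below 0, beside 51.0% of all genes. Across genes, which are not independent replicates, the 22RV1 differences had a Pearson correlation of 0.41 with the LNCaP shRNA effects (10998 genes) and 0.33 with the siRNA differences (12223 genes), and the siRNA arrays were normalized together with the 22RV1 arrays.

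**Figure D4:**
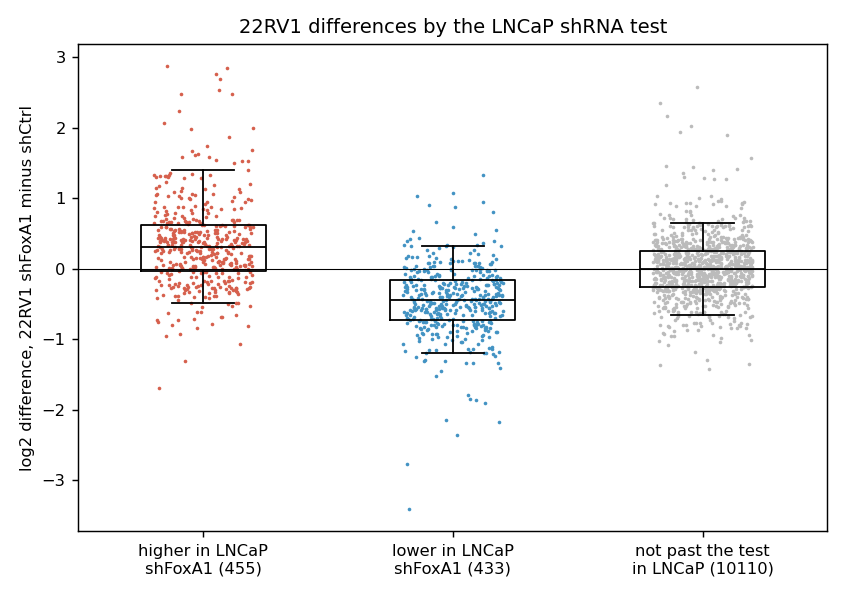
Log2 differences in the 22RV1 pair for genes that rose, fell or did not pass the test in LNCaP shRNA arrays, with boxes at the quartiles and whiskers at the 5th and 95th percentiles; points are genes, of which only a random part is drawn for the last class. Medians were 0.31, -0.45 and -0.01.

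The largest 22RV1 differences divided into genes that LNCaP shared and genes that it did not. SLC45A3 fell in LNCaP by 2.66 (adjusted p = 0.00448) and was lower in all 4 shRNA pairs and in the siRNA pair (-1.30). Numbered shRNA arrays were joined into pairs by number only to show values, as the labels do not say that they belong together. HLA-DMB fell by 1.17 (adjusted p = 0.0185). LXN, GPER1 and SELENBP1 rose, by 2.17, 1.63 and 1.03. IGFBP3 was higher in all 5 LNCaP pairs, from 1.18 to 7.05, yet its adjusted p was 0.0533, just short of the threshold. By contrast ALB was above background on all 8 LNCaP shRNA arrays and differed there by -0.09 (adjusted p = 0.683), and by 0.17 in the siRNA pair. SCGN, PDK4 and ADGRL2, all higher in 22RV1, were above background on 0 of the 8 LNCaP shRNA arrays, with or without knockdown. PON1, ALPL and HLA-DQB1, all lower in 22RV1, were likewise above background on 0 of those arrays, where a decrease could not be measured. The difference between the lines was not tested, since 22RV1 has no replicate.

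Genes that passed in LNCaP and differed 2-fold or more in that direction in both the 22RV1 and the siRNA pair numbered 40, with 27 higher and 13 lower. SOCS2, a brake on cytokine signalling, had 9.58 in 22RV1_shFoxA1 and 6.89 in 22RV1_shCtrl, and rose by 1.37 in LNCaP. The beta-defensin DEFB132 (2.54 in 22RV1), the carbonic anhydrase CA4 (2.48), the membrane metalloprotease MME (2.24, with probes from 0.13 to 2.24), CYP1A2 (2.07) and the chloride-bicarbonate exchanger SLC26A3 (1.98) were also among them, as was CCDC85A (2.48, with its other probe at 0.53). The other probes of DEFB132 were below background and gave -0.03 and -0.05. ANG was the largest of the shared decreases after SLC45A3, at -2.17 in 22RV1 and -1.39 in the LNCaP fit. ANXA1, LAMB3, SGK1, BCHE, DDC and KIF11 from the lists above were in this group as well. For LAMB3 the other probes were below background, at -0.005 and 0.0007.

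**Figure D5:**
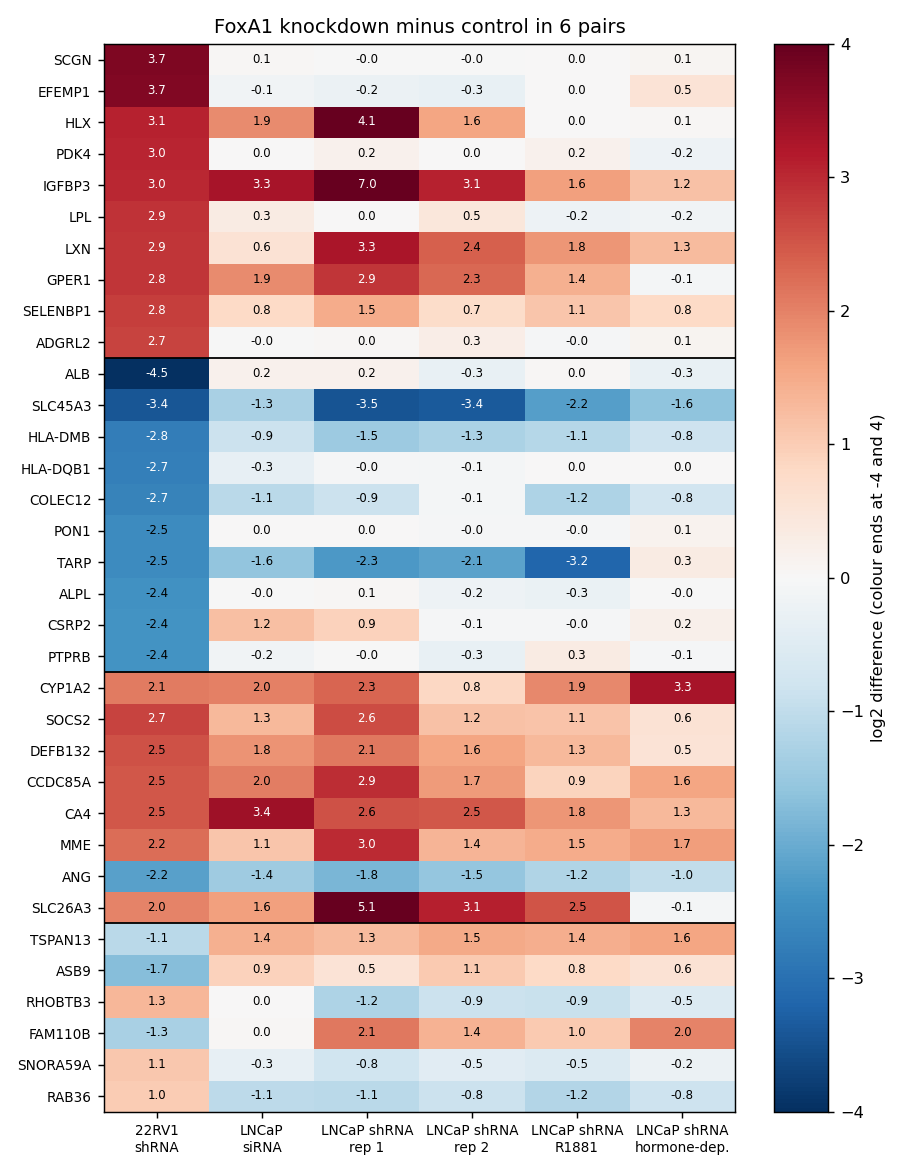
Log2 difference of FoxA1 knockdown minus control in the 22RV1 pair, the LNCaP siRNA pair and the 4 LNCaP shRNA pairs (columns) for, from top to bottom, the 10 largest 22RV1 increases, the 10 largest decreases, the first 8 further genes shared by the LNCaP test and both other pairs, and the 6 genes that went the other way; numbers are the differences. SLC45A3 is negative in all 6 columns, whereas ALB is strongly negative in the first column only.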

How the data were processed

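RNA was hybridized to Illumina bead arrays and read with GenomeStudio (version not given), per the submitters' processing notes. The 22RV1 and LNCaP siRNA arrays were deposited by the authors as raw probe intensity, neither background-subtracted nor normalized; the columns headed as detection p-value in that table, per the file headers, held whole numbers and were not used. The LNCaP shRNA arrays were deposited as background-subtracted intensity with a detection p-value, per the file headers. The deposited matrix of all arrays, also intensity, served as an alternative.

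Intensities were corrected with normexp (offset 16) and quantile normalized on the log2 scale within each table, with R 4.3.3 and limma 3.58.1. A probe of the 22RV1 table counted as above background at the mode plus 1.645 SD, a rule carried over from earlier work on these data that had been chosen after seeing the values; on the 8 LNCaP shRNA arrays it matched the detection p for 91.2 to 99.4% of probes. A gene was its probe with the highest mean. Of 47315 probes 30113 carried 1 gene symbol, 8 several and the rest were not listed; 30074 gene IDs were found in RefSeq (GRCh38.p14) and 0 symbols changed. A 2-fold call needed detection on the brighter array; where the dimmer array was below background, the fold was computed against its detection limit as a lower bound. Log2 folds understate changes of dim probes because of the offset. The number of arrays limits the precision.

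The LNCaP shRNA arrays were fitted with limma (lmFit, eBayes; knockdown and medium label), keeping genes detected at p below 0.05 on at least 2 of 8 arrays, with Benjamini-Hochberg adjustment, two-sided. The labels do not say whether numbered arrays came from separate cultures, so p-values measure only the spread between these arrays. Both calculations were tested on simulated data.

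Named genes were FOXA1, KLK3, SNAI2, CDH1 and VIM; the 10 largest increases and decreases with the same sign in the matrix and in every detected probe; up to 4 members of each of 48 lists; up to 10 genes shared with LNCaP shRNA and siRNA; and up to 6 going the other way. Other genes named in the text as list members were picked after their values were seen, as were the promoters printed. The members and lists were chosen with earlier results of these data known, and the liver and glucocorticoid lists after these values were seen. Of 670 members written by symbol, 44 had no named probe and 117 were below background. Some genes are not analysed here.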

Additional observations from a re-analysis of the deposited data

Results flagged for a closer look

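5 genes that passed the LNCaP shRNA test differed 2-fold or more in the opposite direction in the 22RV1 pair and had the opposite sign in all 5 LNCaP pairs; the differences between the lines were not tested, since 22RV1 had 1 array a side. TSPAN13, a tetraspanin, differed by -1.06 in 22RV1 and by 1.45 in the LNCaP fit. ASB9, a SOCS box protein, differed by -1.70 in 22RV1 (its other probe gave -1.82) and by 0.74 in LNCaP. FAM110B differed by -1.31 in 22RV1 and by 1.63 in LNCaP. The small nucleolar RNA SNORA59A differed by 1.08 in 22RV1 and by -0.51 in LNCaP. RAB36, a small GTPase, differed by 1.03 in 22RV1 and by -0.98 in LNCaP. All but ASB9 fell under 2-fold in 22RV1 under at least 1 other setting, without a change of sign.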

How the results depend on the processing

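All 432 genes at least 2-fold apart in 22RV1 kept their direction under 8 other ways of normalizing, summarizing or sourcing the values, 1 of them (scaling on probes detected on both arrays, 200 higher and 221 lower) added after seeing the data. They were picked for a large difference on the same 2 arrays, so a change of sign was unlikely beforehand. The number of called genes, 240 higher and 192 lower, was 89 and 53 (142 in all) without background correction, 127 and 80 (207) with an offset of 50, 76 and 1317 (1393) with median scaling and 963 and 1013 (1976) at 1.5-fold. The number of lists whose median lay at least 0.25 from that of all genes, 12, became 6 both without background correction and with an offset of 50. The fibroblast list median, -0.25 relative to all genes, became 0.21 (0.213) under both kinds of median scaling.

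The LNCaP shRNA count of 939 was 123 without the medium term, 121 to 737 without single numbered arrays (133 without shCtrl replicate 2, 214 without shCtrl replicate 1), 52 without the R1881 pair, 615 when taken from the matrix, 1457 with median scaling and 265 with no filter. With the replicate block for pairs it was 527, and 67 of the 22RV1 genes were shared the same way. Same-numbered arrays deviated in opposite ways (r = -0.17), so the fit did not pair arrays by number. The LNCaP shRNA pairs given for single genes joined same-numbered arrays only to show values. Genes shared the same way, 99, were 22 without the medium term, 24 to 100 without single numbered arrays, 9 without the R1881 pair, 31 with no filter, 41 without 22RV1 background correction, 58 with an offset of 50, 214 with median scaling and 282 at 1.5-fold. Genes going the other way, 6, were 3 to 5 without single numbered arrays, 2 without the R1881 pair, 1 when detection on all 8 arrays was needed, 1 without 22RV1 background correction, 3 with an offset of 50, with cyclic loess and with the 2 22RV1 arrays normalized alone, 21 with median scaling and 28 at 1.5-fold. The cause of these shifts was not tested. With 1 array a side, none of these settings measures replicate error, and differences of dim probes depend most on the background step: KLK3 ranged from 0.49 to 1.30.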
